A study of Mus musculus with 36 samples.

Results

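The myelinated optic nerve (MON) was examined 2 weeks (2 W) after optic nerve crush. The comparison took its members from the labels alone: 2 MON libraries at 2 W after crush and 2 MON libraries from naïve nerves, which are 4 of the 36 libraries of the series. All mice were C57BL/6 of 2–4 months of age and carried no transgene or deletion according to the labels. In the crush group the nerve of 1 side was squeezed with self-closing forceps behind the eye, and naïve nerves came from uninjured mice. The paper places the crush in the MON and does not state its distance from the collected segment. Whether that segment held the crush site, or lay before or beyond it, is therefore not known. Each group holds 1 library from a pool of 2 females and 1 library from a pool of 2 males, so n = 2 pools per group, and the sex of a pool cannot be told apart from any other difference between the pools. The MON is the nerve segment just behind the myelin transition zone, and the unmyelinated optic nerve (UON) is the segment between the eye and that zone. Used for comparison were the MON at 3 days (3 D) after crush, the UON naïve and at 2 W after crush, and the MON at 2 W in a microbead model of glaucoma.

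The optic nerve holds the axons of retinal ganglion cells (RGCs) but not their cell bodies. In the MON these axons are wrapped by oligodendrocytes, which make myelin, a membrane rich in cholesterol, and they are accompanied by astrocytes, oligodendrocyte precursors, microglia and vessels. A crush cuts the axons off from their cell bodies, the distal parts break down in Wallerian degeneration, and microglia and macrophages take up axon and myelin debris, a process that is slow in the central nervous system.

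The deposited gene counts summed to 78054205 in the naïve female pool and 17757595 in the naïve male pool, and to 16326906 and 35564594 in the female and male pools at 2 W. Levels are given below as CPM, counts scaled by TMM to a library of common size, first for the female and then for the male pool. Xist and Ddx3y matched the labelled sex in 18 of 18 libraries used. Oligodendrocyte RNAs led in the naïve MON: Mbp, the myelin basic protein, was at 88124 and 72378 CPM. The astrocyte filament Gfap was at 10971 and 8206 CPM. Markers of retina and muscle were low. The 17 photoreceptor genes tested summed to 227 and 92.5 CPM in the naïve pools and to 111 and 95.3 CPM at 2 W, and 7 skeletal muscle genes to 12.2 and 25.8 CPM and to 21.3 and 17.3 CPM. Markers of meninges and peripheral nerve were not low. The 20 meningeal fibroblast genes summed to 3569 and 7262 CPM in the naïve pools and to 3572 and 4690 CPM at 2 W. The 10 of 12 Schwann cell markers that were tested summed to 871 and 678 CPM and to 757 and 860 CPM. Genes of the mitochondrial genome took 0.553% to 1.58% of the counts of these 4 libraries but changed between 0 and high counts from library to library, so no level of theirs is described.

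Of 55487 genes in the table, 19988 passed the filter and were tested with edgeR's quasi-likelihood test. A gene was called where the p adjusted by Benjamini-Hochberg was below 0.05 and the log2 fold change exceeded 1 in size. By this rule 544 genes (2.72%) changed at 2 W after crush, of which 425 (2.13%) rose and 119 (0.595%) fell. In the counts of list members below, rose and fell mean called. The shares of 2.13% and 0.595% of all genes tested are the background for each such count. Without adjustment, 3204 genes had a p below 0.05, against 999 expected by chance. The log2 fold change had a median of 0.05 over all genes tested. DESeq2 on the same libraries and model called 1144 genes higher and 585 lower, and 533 of the 544 edgeR calls were shared. Fewer calls were kept when a naïve pool was left out than when a 2 W pool was. Without the naïve female pool 4 of the 425 and 7 of the 119 genes were still called, and without the naïve male pool 23 and 14. Without the female pool at 2 W 389 and 96 were still called, and without the male pool at 2 W 417 and 117, within totals that grew to 858 higher and 248 lower and to 1061 higher and 488 lower. The sizes moved less: in each of these 4 fits at least 424 of the 425 and 115 of the 119 genes kept their direction and a log2 fold change beyond 1.

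Only 8 genes were called in all 4 fits that left out a library. Of these, 5 fell and are neuronal genes: Kif5a, Nefl, Unc13c, Rph3a and Nrsn1. The other 3 rose: Cst7 and Lpl, both known as genes of lipid-handling, disease-associated microglia, and Esm1, an endothelial proteoglycan. For every other gene named below the call was lost without at least 1 naïve pool, and no gene called among those picked by the naming rule changed direction in any setting tried.

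**Figure D1:**
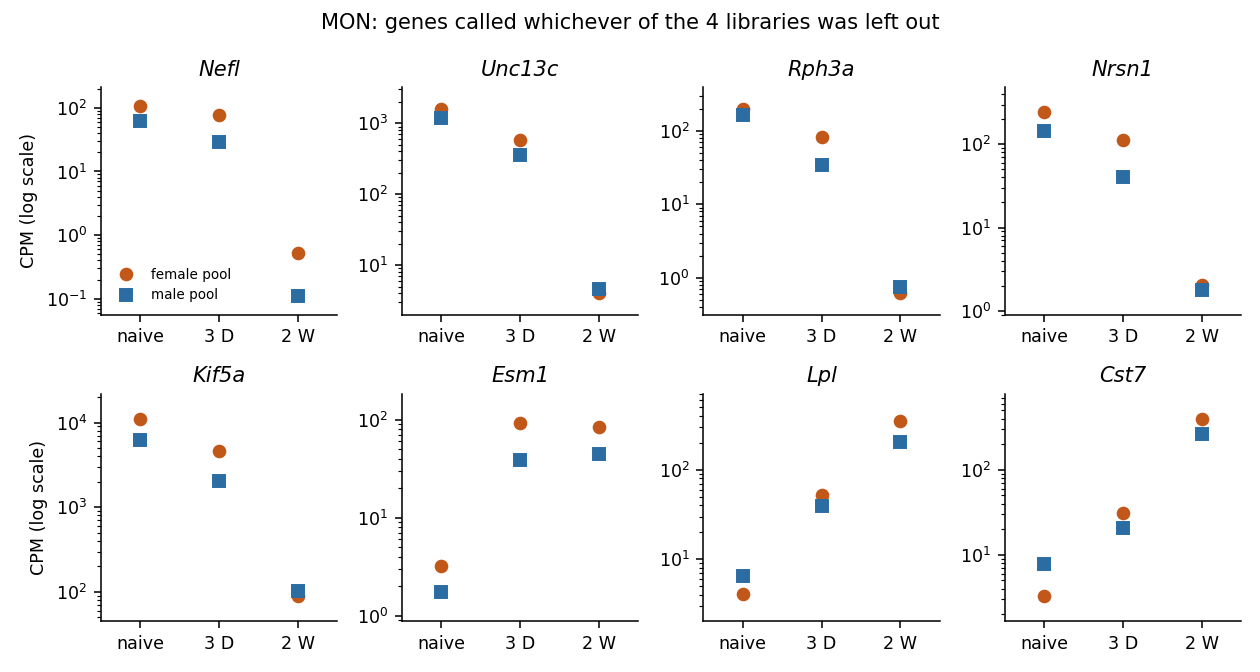
Levels of the 8 genes called in every fit that left out a library. Each panel shows CPM on a log axis in the naïve MON and at 3 D and 2 W after crush, with 1 point for the female pool and 1 for the male pool. Kif5a lay at 10897 and 6190 CPM in the naïve pools and at 90.1 and 103 CPM at 2 W, while Cst7 went from 3.30 and 7.86 to 392 and 267 CPM.

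Of the 8 genes, the 5 that fell are RNAs of neurons. Kif5a, the neuronal kinesin heavy chain that drives transport along axons (chr10:127225696-127263348, GRCm38), was at 10897 and 6190 CPM in the naïve pools, at 4599 and 2031 CPM at 3 D and at 90.1 and 103 CPM at 2 W. Both 2 W pools lay far below both naïve pools, and Kif5a was 82.4-fold lower (log2 fold change −6.36 ± 0.57 (SE), edgeR adjusted p = 0.0103, n = 2 pools per group). Per length, Kif5a stood at 3147 and 1654 TPM in the naïve pools and at 28.6 and 31.2 TPM at 2 W. Nefl, the light neurofilament chain (chr14:68083863-68089095), was at 105 and 62.3 CPM in the naïve pools, at 78.3 and 28.7 CPM at 3 D and at 0.52 and 0.11 CPM at 2 W. It fell by 8.29 ± 0.47 (SE) on the log2 scale (edgeR adjusted p = 0.00248). Unc13c, a Munc13 protein that primes synaptic vesicles (chr9:73479422-73968966), was at 1607 and 1172 CPM in the naïve pools and at 4.01 and 4.60 CPM at 2 W, 313-fold lower. Rph3a, the Rab3 effector rabphilin, was at 194 and 163 CPM in the naïve pools and at 0.63 and 0.76 CPM at 2 W. Nrsn1, neurensin of neuronal vesicles, was at 242 and 145 CPM in the naïve pools and at 2.06 and 1.79 CPM at 2 W. In none of these genes did the groups overlap. Other calls had larger fitted decreases, among them mitochondrial genes, unnamed gene models and Panx2, and are genes at or near 0 in some pools. In bulk RNA, fewer axons and less RNA per axon cannot be told apart.

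Of 24 tested members of the axonal and neuronal list, 6 fell and 1 rose, with a median log2 fold change of −1.33. Besides Kif5a and Nefl the genes that fell were Nefh, Ina, Calb2 and Snap25. Nefh, the heavy neurofilament chain, was at 17.6 and 17.4 CPM in the naïve pools and 0 and 0.22 CPM at 2 W. The intermediate filament Ina was at 18.3 and 20.3 and then 0.92 and 1.20 CPM. Calb2 (calretinin) was at 28.7 and 25.6 and then 0.23 and 1.01 CPM. Snap25, a synaptic SNARE protein, was at 42.6 and 39.4 and then 1.72 and 3.56 CPM. The middle neurofilament chain Nefm was not called, with 4.83 and 6.10 CPM in the naïve pools and 0.29 and 1.09 CPM at 2 W (edgeR adjusted p = 0.0673). The list did not move as a block. Stmn2, a tubulin-binding protein of growing and injured axons, was at 4.58 and 7.75 CPM and then 20.1 and 12.7 CPM without being called (edgeR adjusted p = 0.202). With either naïve pool left out, 2 members of the list were still called lower. Among the 19 tested genes of the node of Ranvier only Sptbn4, a spectrin of nodes and axon initial segments, was called lower. It went from 27.5 and 19.996 CPM to 0.63 and 0 CPM. By estimate 17 of the 19 were lower and 2 higher, with a median log2 fold change of −0.58. In 10 both 2 W pools lay below both naïve pools and in 1 above, against 22.2% and 26.4% of all genes tested. At an unadjusted edgeR p below 0.05, 5 were lower, and DESeq2 called 2 lower. Further genes among the largest decreases were Panx2, a pannexin channel, at 2.46 and 4.67 CPM in the naïve pools and at 0 in both pools at 2 W, Cacng3, an AMPA receptor auxiliary subunit, from 55.8 and 45.05 to 0.23 and 1.01 CPM, Pcp4, a calmodulin regulator, from 24.6 and 37.2 to 1.15 and 0.34 CPM, and Nrn1 (neuritin) from 9.80 and 6.98 to 0.23 and 0.22 CPM.

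Genes of cholesterol synthesis fell together. The list holds enzymes of the pathway with its sterol sensors and carriers. Of its 25 members, all tested, 13 fell and 0 rose, with a median log2 fold change of −1.99, and in 23 both 2 W pools lay below both naïve pools, which was the case for 22.2% of all genes tested. DESeq2 called 20 members lower. Without the naïve female pool 1 member was called and without the naïve male pool 1, with medians of −1.81 and −1.87. Hmgcs1, which makes HMG-CoA at the head of the pathway, was at 1078 and 693 CPM in the naïve pools, at 542 and 352 CPM at 3 D and at 115 and 169 CPM at 2 W, 6.03-fold lower (edgeR adjusted p = 0.0314). Both naïve pools were above both 3 D pools, which were above both 2 W pools. Further down the pathway, Fdps, the farnesyl diphosphate synthase, went from 254 and 257 CPM to 37.5 and 42.2 CPM and Fdft1, squalene synthase, from 281 and 213 CPM to 25.3 and 49.3 CPM. Mvk, Pmvk, Mvd, Sqle, Lss, Cyp51, Stard4 and Insig1 fell as well, by between 1.27 and 2.47 on the log2 scale. Srebf2, the transcription factor of the pathway, was not called (edgeR adjusted p = 0.085).

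Since these genes moved together, their upstream sequences are shown. Promoters from RefSeq (GRCm38.p6) were found for 17 of the 25 members, 7 of them called. In the 250 bases before the start site, the CCAAT box (letters CCAAT, either strand) was present in 16 of the 17 members with a promoter and in all 7 called ones, against 37.5% of the 27025 genes with a promoter. The core of the sterol regulatory element, searched as TCACNCCAC on both strands, was present in 1 of the 17 (Hmgcs1) and in 1.22% of all genes. The sequences below run 5′ to 3′ on the strand of the gene and end at the base before the start site, and capitals mark these motifs, which do not overlap each other. A match is a description of the letters and not of a bound site.
Hmgcs1, chr13:119690101-119690350, plus strand: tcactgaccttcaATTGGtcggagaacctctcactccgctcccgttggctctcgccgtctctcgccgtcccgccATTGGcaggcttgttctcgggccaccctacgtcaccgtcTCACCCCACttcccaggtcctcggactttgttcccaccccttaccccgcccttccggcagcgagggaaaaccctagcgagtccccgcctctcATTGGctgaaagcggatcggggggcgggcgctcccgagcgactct
Mvk, chr5:114444019-114444268, plus strand: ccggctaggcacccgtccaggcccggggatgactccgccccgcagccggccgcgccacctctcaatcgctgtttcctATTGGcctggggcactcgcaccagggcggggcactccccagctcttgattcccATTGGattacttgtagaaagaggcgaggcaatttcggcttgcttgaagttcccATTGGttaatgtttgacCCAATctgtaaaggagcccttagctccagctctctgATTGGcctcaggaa
Cyp51, chr5:4104698-4104947, minus strand: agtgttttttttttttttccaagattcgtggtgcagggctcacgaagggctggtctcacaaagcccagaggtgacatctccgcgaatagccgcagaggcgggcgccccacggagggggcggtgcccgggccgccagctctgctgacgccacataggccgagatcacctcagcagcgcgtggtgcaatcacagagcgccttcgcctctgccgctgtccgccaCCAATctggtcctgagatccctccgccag
Insig1, chr5:28071162-28071411, plus strand: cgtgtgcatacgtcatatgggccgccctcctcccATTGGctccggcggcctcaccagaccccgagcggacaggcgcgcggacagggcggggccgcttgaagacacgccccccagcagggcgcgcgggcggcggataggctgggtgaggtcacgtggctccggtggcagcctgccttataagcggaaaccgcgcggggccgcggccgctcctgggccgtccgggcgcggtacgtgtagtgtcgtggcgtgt
In Hmgcs1 the sterol element begins 137 bases before the start site and lies between CCAAT boxes on the opposite strand that begin 176 and 45 bases before it. Mvk holds 5 CCAAT boxes, Cyp51 and Insig1 1 each.

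Myelin genes fell less than the genes of cholesterol synthesis. Of 29 tested members of the mature oligodendrocyte and myelin list, 5 fell and 0 rose, with a median log2 fold change of −1.28. In 26 of the 29 both 2 W pools lay below both naïve pools, against 22.2% of all genes tested. DESeq2 called 24 lower, while no member was called with either naïve pool left out (medians −1.04 and −1.47). Mog, myelin oligodendrocyte glycoprotein of the outer myelin surface, went from 1187 and 1006 CPM to 328 and 358 CPM (log2 fold change −1.67 ± 0.32 (SE), edgeR adjusted p = 0.0449). Fa2h, which makes the hydroxylated lipids of myelin, went from 628 and 491 CPM to 139 and 181 CPM. Myrf, the transcription factor of the myelin programme, went from 264 and 302 CPM to 90.5 and 87.1 CPM, Hapln2, a link protein at nodes, from 470 and 470 CPM to 141 and 148 CPM, and the connexin Gjc3 from 448 and 385 CPM to 127 and 139 CPM. Mbp did not pass the test. It was at 27798 and 36087 CPM at 2 W (log2 fold change −1.32 ± 0.49 (SE), edgeR adjusted p = 0.237). Per length, Mbp still stood at 29116 and 35747 TPM at 2 W. Of 20 genes of oligodendrocyte precursors and newly formed cells 0 were called by edgeR, 6 had an unadjusted p below 0.05, all lower, and 5 were called lower by DESeq2. Pdgfra, the growth factor receptor of the precursors, was at 79.8 and 55.9 CPM in the naïve pools and at 60.6 and 50.8 CPM at 2 W.

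**Figure D2:**
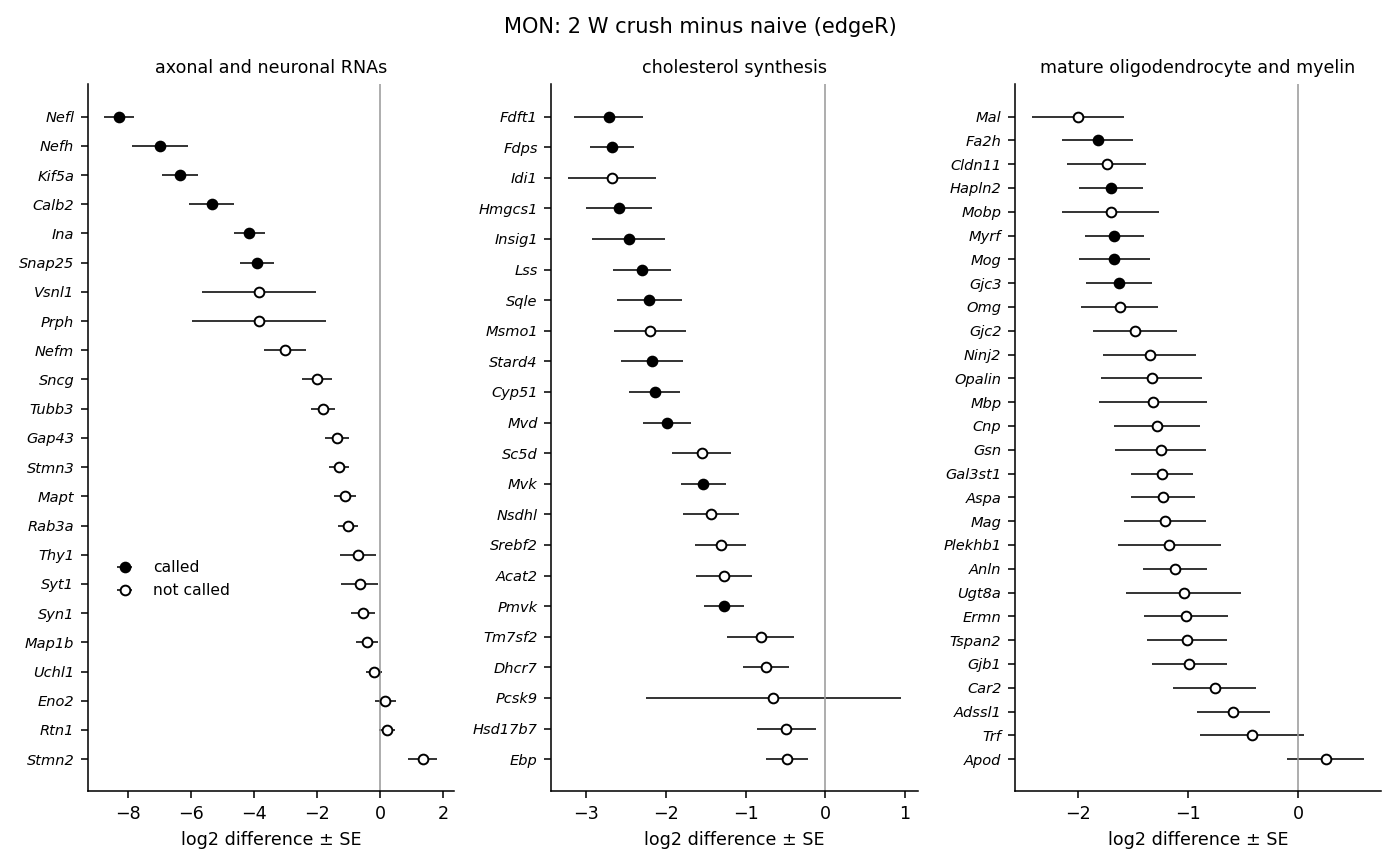
Log2 differences (2 W crush minus naïve, edgeR) with their standard errors for the tested members of the axonal, cholesterol synthesis and myelin lists that are reported here. Filled points passed the test. Axonal genes spread from −8.29 (Nefl) to 1.35 (Stmn2), the cholesterol genes shown all lie below 0, and myelin genes lie close together around −1.28. The x axis differs between the panels.

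Genes of disease-associated microglia, the state that microglia take around damaged myelin and neurons, had the highest median of all gene lists. In bulk RNA a changed state, more cells and other cells that express these genes cannot be told apart. Of 26 members, all tested, 20 rose and 0 fell, with a median log2 fold change of 3.10, and in 25 both 2 W pools lay above both naïve pools, against 26.4% of all genes tested. The list summed to 5460.3 and 5304 CPM in the naïve pools and to 48133 and 25761 CPM at 2 W. Without the naïve female pool 2 members were called, without the naïve male pool 9, with medians of 3.24 and 3.44. Cst7, cystatin F, an inhibitor of lysosomal cysteine proteases (chr2:150570415-150578944), was at 3.30 and 7.86 CPM in the naïve pools, at 31.3 and 20.6 CPM at 3 D and at 392 and 267 CPM at 2 W, 60.2-fold higher (edgeR adjusted p = 0.0109). Lpl, lipoprotein lipase (chr8:68880491-68907448), was at 4.02 and 6.43 CPM in the naïve pools, at 52.0 and 39.7 CPM at 3 D and at 355 and 205 CPM at 2 W, 52.8-fold higher (edgeR adjusted p = 0.00884). In both genes all 3 groups were separate and 2 W was the highest.

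Other members rose as well. Clec7a, the dectin receptor for fungal glucans, went from 3.62 and 3.63 CPM to 140 and 57.4 CPM, Itgax, the CD11c integrin chain, from 0.74 and 2.80 CPM to 76.6 and 41.7 CPM, and Igf1, insulin-like growth factor, from 1.11 and 3.02 CPM to 133 and 58.1 CPM. The inhibitory receptor gene Lilrb4a went from 1.80 and 1.87 CPM to 164 and 90.5 CPM, and reads of its close paralogue may be shared with it. The chemokines Ccl3 and Ccl4, which share a receptor, rose by 3.98 and 4.39 on the log2 scale. Spp1, osteopontin, spread widely between pools: it was at 39.4 and 22.6 CPM in the naïve pools, at 7445 and 16265 CPM at 3 D and at 4250 and 628 CPM at 2 W (log2 fold change 6.08 ± 0.99 (SE), edgeR adjusted p = 0.034). Atp6v0d2, a proton pump subunit of lysosomes known from osteoclasts, was at 0.01 and 0 CPM in the naïve pools and at 58.6 and 3.42 CPM at 2 W. It was called, and no fold is given because its naïve counts are at or next to 0. Trem2, the lipid receptor of this state, and its adaptor Tyrobp rose to 515 and 300 CPM and to 1220 and 736 CPM, by 3.02 and 2.75 on the log2 scale. Apoe, a member that is also made by astrocytes, did not rise: it was at 2743 and 12714 CPM in the naïve pools and at 10336 and 8105 CPM at 2 W (edgeR adjusted p = 0.948), so that the naïve male pool was the highest of the 4.

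The genes that mark resting microglia did not fall. Of 15 homeostatic microglia genes 4 rose and 0 fell, with a median log2 fold change of 0.98. Fcrls, an Fc receptor-like gene of microglia, went from 11.7 and 18.6 CPM to 659 and 309 CPM. Aif1 (Iba1) and Gpr34 rose by 2.26 and 1.97 on the log2 scale. P2ry12, the purinergic receptor of resting microglia, was at 29.7 and 16.3 CPM and then 34.1 and 31.5 CPM, and Tmem119 at 159 and 134 CPM and then 174 and 103 CPM, neither called. Cx3cr1, the fractalkine receptor, differed between the pools: it was at 6.12 and 23.2 CPM in the naïve pools and at 604 and 24.4 CPM at 2 W (edgeR adjusted p = 0.269). Markers of cells that enter from blood or sit at borders were mixed. Ccr2, the receptor of inflammatory monocytes, went from 0.40 and 0.27 CPM to 11.2 and 6.56 CPM and Ms4a7, a gene of border and infiltrating macrophages, from 0.65 and 0 CPM to 89.2 and 27.2 CPM, both called. Of 19 tested members of that list 3 rose. The list differs between the pools at 2 W: its median was 2.26 in the female and 0.37 in the male pools, and 11 members were called higher without the male pool at 2 W (median 2.86) but 4 higher and 1 lower without the female pool (median 0.05). With either naïve pool left out, 0 members were called. Of 7 tested neutrophil genes only Csf3r, which microglia also express, rose, and S100a8 and S100a9 stayed at or below 3.21 CPM in all 4 pools. Of 17 tested genes of T, NK and B cells 0 were called by edgeR and 2 by DESeq2, both higher. At an unadjusted edgeR p below 0.05, 3 were higher. By estimate 16 were higher and 1 lower, with a median log2 fold change of 1.63. In 8 both 2 W pools lay above both naïve pools, against 26.4% of all genes tested. Levels were low. The 17 summed to 32.8 and 34.3 CPM in the naïve pools and to 48.3 and 61.9 CPM at 2 W, with Cd3e at no more than 1.09 CPM.

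Lysosome genes rose in part. Of 47 members, all tested, 15 rose and 0 fell. In 38 both 2 W pools lay above both naïve pools, against 26.4% of all genes tested. No member was called with either naïve pool left out, with medians of 1.33 and 1.01 against 1.16 with all pools. The cathepsins led by level: Ctsd, an aspartic protease, went from 1700 and 1633 CPM to 23759 and 12300 CPM, 10.6-fold higher (edgeR adjusted p = 0.0294), and Ctsb from 1192 and 922 CPM to 8249 and 5143 CPM, which DESeq2 did not call. Per length Ctsd stood at 22292 and 11715 TPM at 2 W. Hexa, Glb1, Gusb, Man2b1 and Galns, which break down glycans and glycolipids, rose by between 1.80 and 3.06 on the log2 scale. The lysosomal CLEAR motif, searched as GTCACGTG on both strands, was present in the 250 bases before the start site of 8 of 35 lysosome genes with a promoter (22.9%) and of 2.11% of all genes. It was not particular to genes that rose. Of the cholesterol synthesis genes, which fell, 3 of 17 with a promoter held it (17.6%), among them Insig1, where it is not marked above. Of the 9 called lysosome members with a promoter it was in Ctsd, which holds 2, and Glb1, shown here with the motif in capitals.
Ctsd, chr7:142387828-142388077, minus strand: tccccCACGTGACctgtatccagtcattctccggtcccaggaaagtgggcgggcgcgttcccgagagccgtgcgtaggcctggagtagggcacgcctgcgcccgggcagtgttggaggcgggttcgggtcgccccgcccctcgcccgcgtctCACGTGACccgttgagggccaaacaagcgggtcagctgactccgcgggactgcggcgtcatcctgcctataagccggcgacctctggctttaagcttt
Glb1, chr9:114400828-114401077, plus strand: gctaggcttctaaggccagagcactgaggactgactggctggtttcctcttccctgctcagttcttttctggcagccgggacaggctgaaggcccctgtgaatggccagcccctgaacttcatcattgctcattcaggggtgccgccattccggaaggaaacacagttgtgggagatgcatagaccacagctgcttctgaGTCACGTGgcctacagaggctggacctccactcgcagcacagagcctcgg

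Lipid uptake, storage and efflux followed. Of 24 members 9 rose and 0 fell, with a median log2 fold change of 1.83. Besides Lpl and Trem2, Abca1, the cholesterol exporter, went from 48.3 and 32.8 CPM to 447 and 304 CPM (log2 fold change 3.21 ± 0.31 (SE), edgeR adjusted p = 0.0109), Plin2, a coat protein of lipid droplets, from 27.2 and 35.5 CPM to 299 and 154 CPM, and Msr1, a scavenger receptor, from 0.30 and 0.49 CPM to 54.5 and 7.37 CPM. The apolipoprotein genes Apoc1 and Apoc4 went from at most 1.32 CPM to 66.8 and 14.04 CPM and to 54.1 and 11.7 CPM. Both lie in the gene cluster of Apoe. Mylip, a ubiquitin ligase of cholesterol uptake, and Ch25h, which makes an oxysterol, rose by 2.45 and 2.92 on the log2 scale. Without the naïve female pool 1 of the 24 was called and without the naïve male pool 4.

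Of 32 tested phagocytic receptor and oxidase genes 10 rose. In 31 both 2 W pools lay above both naïve pools, against 26.4% of all genes tested. Cybb, the catalytic subunit of the phagocyte oxidase, went from 7.36 and 5.603 CPM to 140 and 58.3 CPM, and its partner Cyba from 45.1 and 67.9 CPM to 345 and 227 CPM. Tlr2, a receptor for bacterial lipoproteins, went from 14.3 and 13.7 CPM to 123 and 88.2 CPM. Of 26 tested complement genes 6 rose. C1qb and C1qc, chains of the first component, went from 382 and 534 CPM to 2515 and 1505 CPM and from 243 and 354 CPM to 1808 and 1013 CPM, while C1qa, from 156 and 245 CPM to 1161 and 608 CPM, just missed (edgeR adjusted p = 0.0554). C3ar1, the receptor for a C3 fragment, rose from 8.52 and 8.90 CPM to 181 and 102 CPM. C3 itself was at 212 and 250 CPM and then 963 and 1750 CPM and was not called (adjusted p = 0.119). Of 16 members of the MHC class I list 5 rose, among them Tap1, the peptide transporter, from 19.5 and 13.2 CPM to 56.5 and 43.3 CPM. All 16 had both 2 W pools above both naïve pools, against the same 26.4% of all genes. Of 14 tested members of the MHC class II list H2-DMa and H2-DMb1 rose, as did Cd86, a costimulatory ligand that is not itself a class II gene. H2-Ab1 was at 26.01 and 30.3 CPM and then 239 and 96.7 CPM without being called. No member of the phagocytic, complement or MHC lists was called without the naïve female pool, and without the naïve male pool 1, 1 and 0.

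Signalling genes of inflammation had more calls in some families than in others. Of 37 genes of NF-kB, IL-1 and TNF signalling 11 rose, with a median log2 fold change of 1.80, among them the adhesion molecules Vcam1, from 70.0 and 50.4 CPM to 539 and 608 CPM, and Icam1, from 20.6 and 10.7 CPM to 97.1 and 73.4 CPM, and Nfkb2, from 12.8 and 11.8 CPM to 39.3 and 46.1 CPM. The paralogues Bcl2a1b and Bcl2a1d rose too, but their reads cannot be separated with certainty. Of 31 chemokine and receptor genes 6 rose, and Cxcl16 went from 20.04 and 22.7 CPM to 182 and 126 CPM. Of 38 interferon-stimulated genes 30 were higher and 7 lower by estimate. In 16 both 2 W pools lay above both naïve pools, against 26.4% of all genes tested. At an unadjusted edgeR p below 0.05, 10 were higher. Lgals3bp, a secreted glycoprotein, went from 98.4 and 93.8 CPM to 689 and 444 CPM. It was the only member called, where 2.13% of all genes tested were called higher. The count depends on the pools at 2 W: 11 members were called higher without the female pool, 3 higher and 4 lower without the male pool, and DESeq2 with all pools called 7 higher. Ifit3 was at 281 and 90.0 CPM in the naïve pools and at 125 and 161 CPM at 2 W, so the naïve female pool was the highest of the 4 and the naïve male pool the lowest. The median log2 difference of the list was −0.12 in the female pools and 1.3 in the male pools. Of 13 tested immediate early genes 6 rose, with Egr2 from 0.47 and 0.55 CPM to 19.9 and 12.4 CPM and Atf3 from 15.5 and 13.95 CPM to 98.5 and 66.6 CPM. Egr2 is also known from myelinating Schwann cells, of whose 10 tested markers it was the only one called. Of 18 gp130 and STAT3 genes 4 rose, among them Lif, Osmr and Socs3, with Socs3 from 19.9 and 17.4 CPM to 83.0 and 51.8 CPM. This list moved both ways. At an unadjusted edgeR p below 0.05, 6 members were higher and 4 lower, and DESeq2 called 4 higher and 3 lower. No NF-kB, chemokine, interferon, immediate early or gp130 gene was called without the naïve female pool, and of these lists only the chemokines kept calls, 2, without the naïve male pool.

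The core of the PU.1 site, a myeloid transcription factor motif, was searched as GAGGAAGT on both strands. It was present in the 250 bases before the start site of 28 of the 310 genes called higher that had a promoter (9.03%), of 2 of 72 called lower (2.78%) and of 2.79% of all genes. The 28 include Bcl2a1b and Bcl2a1d with a further paralogue, C1qc, Ctsc, Cd72, Inpp5d, Vav1, Tlr1, Mmp12 and Spp1. Of the disease-associated microglia list, 1 of 18 members with a promoter held it (5.56%), and this was Spp1. The genes called higher were picked from these same data, and their share was not tested. In Spp1 the motif, in capitals, begins 113 bases before the start site.
Spp1, chr5:104434861-104435110, plus strand: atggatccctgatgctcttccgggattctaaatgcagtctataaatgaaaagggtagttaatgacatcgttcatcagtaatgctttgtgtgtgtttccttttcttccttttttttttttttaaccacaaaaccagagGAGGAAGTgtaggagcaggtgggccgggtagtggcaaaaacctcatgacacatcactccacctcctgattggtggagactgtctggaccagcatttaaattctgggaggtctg

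Homeostatic astrocyte genes did not pass the test against naïve at 2 W, while some reactive astrocyte genes did. Of all genes tested, 2.72% were called. Of 25 homeostatic astrocyte genes 0 were called by edgeR, 3 had an unadjusted p below 0.05 and 1 in each direction was called by DESeq2, with a median log2 fold change of 0.24. Aqp4, the water channel, was at 738 and 424 CPM in the naïve pools and at 1133 and 1353 CPM at 2 W, and the glutamate transporter Slc1a2 at 231 and 309 CPM and then 239 and 219 CPM. Gfap was at 9332 and 15876 CPM at 2 W (edgeR adjusted p = 0.788). Of 13 PAN-reactive genes, which rise in reactive astrocytes after several kinds of injury, Timp1, Osmr and Cd44 rose. Timp1, an inhibitor of metalloproteinases, went from 4.17 and 8.24 CPM to 100.01 and 76.0 CPM and Cd44, the hyaluronan receptor, from 37.8 and 34.3 CPM to 167 and 127 CPM. Timp1 and Cd44 are also expressed by other cells. Of 13 A1 genes Psmb8 and Fbln5 rose, and of 13 A2 genes Tgm1, Cd14, Ptx3 and Tm4sf1. DESeq2 called 7 PAN-reactive, 5 A1 and 5 A2 genes higher. Lcn2, the lipocalin of reactive astrocytes, was at 1.24 and 30.4 CPM in the naïve pools and at 211 and 33.2 CPM at 2 W (adjusted p = 0.56), with a rise in the female pools and near equal values in the male pools. Without the naïve female pool no astrocyte gene of these lists was called, and without the naïve male pool 2 PAN-reactive genes.

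Matrix genes rose in several families. Of 39 tested collagen chains 8 rose: Col4a1, Col4a6, Col5a3, Col6a1, Col6a2, Col8a1, Col11a1 and Col18a1. Col6a1 of the beaded filaments went from 33.6 and 42.5 CPM to 268 and 281 CPM (log2 fold change 2.85 ± 0.32 (SE), edgeR adjusted p = 0.0138) and Col11a1, a minor fibrillar chain, from 6.43 and 3.57 CPM to 48.3 and 43.9 CPM. The chains of scar collagen, Col1a1 at 66.6 and 30.4 CPM and then 220 and 145 CPM and Col3a1 at 82.2 and 60.7 CPM and then 420 and 170 CPM, were not called (adjusted p = 0.091 and 0.0976). Of 11 laminin chains 0 were called by edgeR, 4 had an unadjusted p below 0.05 and 2 were called by DESeq2. Of 41 matrix proteoglycans and glycoproteins 10 rose and Hapln2 fell. Fn1 (fibronectin) went from 74.9 and 128 CPM to 644 and 387 CPM, Ecm1 from 33.1 and 36.2 CPM to 282 and 256 CPM, and Thbs1, thrombospondin, from 1.29 and 2.42 CPM to 36.5 and 15.7 CPM after 266 and 975 CPM at 3 D. Of 32 metalloproteinases and inhibitors 9 rose. Mmp12, the macrophage elastase, went from 0.65 and 0.44 CPM to 79.6 and 19.1 CPM and Plau, urokinase, from 0.14 and 0.27 CPM to 10.3 and 4.12 CPM, and its receptor Plaur from 1.68 and 1.37 CPM to 42.9 and 23.5 CPM. Of 25 integrin subunits Itga5, the fibronectin receptor chain, Itga7, Itgb2 and Itgax rose. Tgfbr1 and Tgfbr2, the receptors of TGF-β, rose by 1.95 and 1.67 on the log2 scale, whereas the ligands Tgfb1, Tgfb2 and Tgfb3 were not called. Of 20 meningeal fibroblast genes 0 were called by edgeR, 7 had an unadjusted p below 0.05 and 6 were called higher by DESeq2. Without the naïve female pool no collagen, matrix, metalloproteinase or TGF-β gene was called, and without the naïve male pool 0, 1, 1 and 0.

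Vessel genes held 1 of the most stable rises. Esm1, endocan, which tip cells of sprouting vessels express (chr13:113209659-113218098), was at 3.22 and 1.76 CPM in the naïve pools, at 91.2 and 38.6 CPM at 3 D and at 84.5 and 44.5 CPM at 2 W, 25.9-fold higher (log2 fold change 4.70 ± 0.31 (SE), edgeR adjusted p = 0.00276). Apln, a ligand also made by tip cells, fell from 125 and 75.4 CPM to 21.6 and 28.8 CPM. The other 18 endothelial and barrier genes were not called. Pecam1 was at 18.3 and 16.2 CPM and then 6.42 and 15.5 CPM. Cldn5 was at 23.6 and 28.8 CPM and then 8.43 and 27.7 CPM. In both, the female pool at 2 W was the lowest of the 4. The list differs between the pools, with a median log2 difference of −1.09 in the female and 0.1 in the male pools. DESeq2 called 3 of its 20 genes lower and 1 higher. Of 17 tested trophic factors and receptors Igf1, Hgf and Lif rose, and Hgf, hepatocyte growth factor, was at 0.03 and 0 CPM in the naïve pools and at 4.82 and 1.43 CPM at 2 W.

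**Figure D3:**
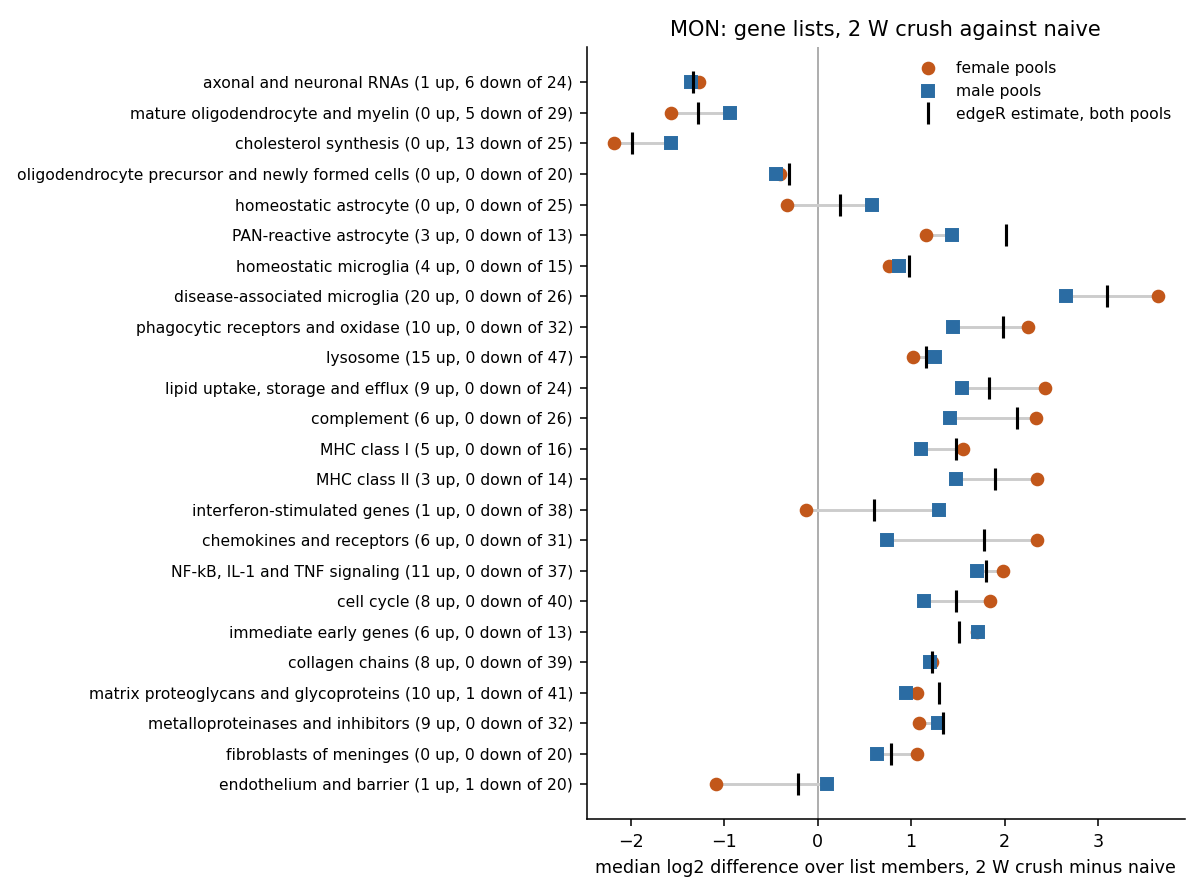
Median log2 difference (2 W crush minus naïve) over the tested members of 24 gene lists, in the female pools, in the male pools and as estimated by edgeR from both. The counts beside each name are the genes called higher and lower. Disease-associated microglia lie furthest right (median 3.10) and cholesterol synthesis furthest left (−1.99), and the interferon, homeostatic astrocyte and endothelial lists have medians of opposite sign in the female and male pools.

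The female and male pools moved the same way for most calls. Of the 425 genes called higher, 423 rose in both, and 307 (of 425) had the larger difference in the female pools, against 44.9% of all genes tested. Their medians were 2.60 in the female and 2.14 in the male pools. Of the 119 called lower, 112 fell in both, with medians of −2.39 and −1.98. The calls outside these counts were mitochondrial genes, Purb and unnamed gene models that were at 0 in some pools. The median of the disease-associated microglia list was 3.64 in the female and 2.66 in the male pools, and that of chemokines 2.35 and 0.74. With 1 pool per sex and group the difference between the sexes was not tested.

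**Figure D4:**
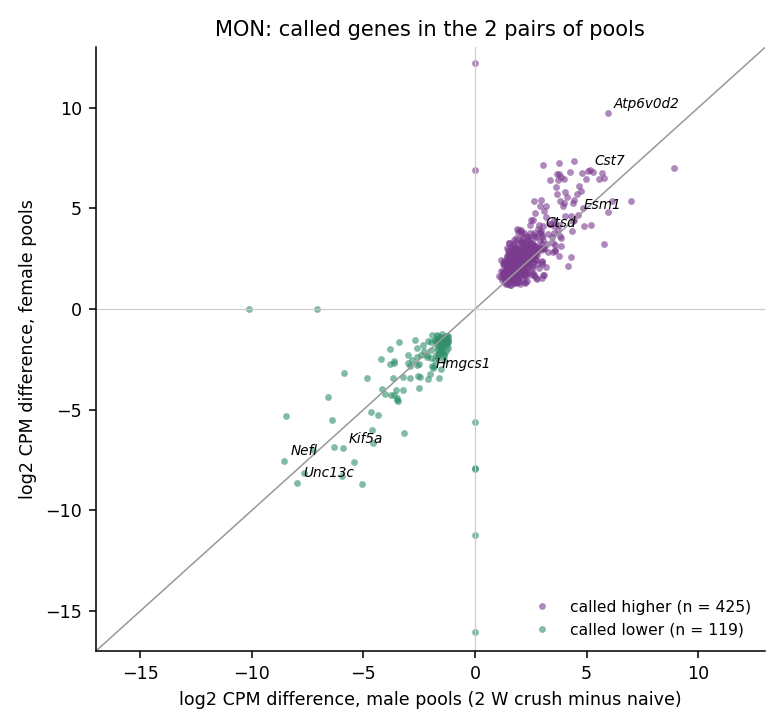
Log2 CPM difference (2 W crush minus naïve) of the male pools (x axis) and the female pools (y axis) for the 425 genes called higher and the 119 called lower. The line marks equal differences. Most points lie in the quadrants where both pairs of pools moved the same way, and points at 0 on an axis are genes with near equal values or no counts in that pair.

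The later time was also compared directly with 3 D in the same fit. Of 19988 genes, 15 (0.075%) were called, 3 (0.015%) higher and 12 (0.06%) lower at 2 W, while DESeq2 called 609 and 447. Without adjustment, 2493 genes had a p below 0.05. The comparison shares the 2 W pools with the comparison against naïve. The axonal genes were still lower at 2 W than at 3 D: Nefl by 7.5, Unc13c by 6.7, Rph3a by 6.2, Nrsn1 by 5.12 and Kif5a by 4.96 on the log2 scale. At 3 D they stood between the naïve and the 2 W levels in both sexes. Genes of proliferation were lower at 2 W. Ccna2, cyclin A2, was at 2.01 and 1.43 CPM in the naïve pools, at 70.8 and 63.1 CPM at 3 D and at 6.37 and 3.78 CPM at 2 W (log2 difference −3.77 ± 0.33 (SE), edgeR adjusted p = 0.0181), and Ccnb1, cyclin B1, went from 74.2 and 58.1 CPM at 3 D to 10.7 and 4.57 CPM. All 40 cell cycle genes were lower at 2 W than at 3 D by estimate, with a median of −2.93 and 36 called by DESeq2. Against naïve, 8 of the 40 were still higher at 2 W, among them Mki67, the Ki-67 antigen, at 2.02 and 1.21 CPM in the naïve pools and 16.9 and 5.86 CPM at 2 W, and no member of the list was called with either naïve pool left out. Hmox1, haem oxygenase, was at 14.3 and 10.8 CPM in the naïve pools, at 671 and 855 CPM at 3 D and at 76.3 and 36.96 CPM at 2 W.

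Igf2 and Gas1 were higher at 2 W than at 3 D, and both 3 D pools lay below both naïve pools. Igf2, an insulin-like growth factor made by meninges and vessels, was at 21.2 and 75.8 CPM in the naïve pools, at 0.50 and 0.38 CPM at 3 D and at 46.2 and 46.5 CPM at 2 W (log2 difference 6.86 ± 0.65 (SE), edgeR adjusted p = 0.0274). Gas1 was at 10.8 and 45.4 CPM, then 0.50 and 0.61 CPM, then 26.1 and 33.1 CPM. Neither differed from naïve at 2 W beyond the test. Igf2 is on the list of meningeal fibroblast genes, and all 20 of that list were higher at 2 W than at 3 D by estimate, with a median of 1.48, of which edgeR called Igf2 alone and DESeq2 6. The list summed to 2221 and 1505 CPM at 3 D, below its naïve and 2 W sums given above in both sexes. How much meninges each segment held was not tested. Astrocyte genes had the same order without passing the edgeR test: Aqp4 was at 292 and 70.4 CPM at 3 D, below both naïve and both 2 W pools (adjusted p = 0.1), and 11 of 25 homeostatic astrocyte genes were called higher at 2 W than at 3 D by DESeq2. Within the microglial list, Cst7 and Lpl were at estimates of 3.67 and 2.60 above 3 D (adjusted p = 0.0603 and 0.0664), and Spp1 at 2.75 below. Cholesterol genes were lower at 2 W than at 3 D in 25 of 25 estimates, with a median of −1.37, 0 calls by edgeR and 14 by DESeq2.

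**Figure D5:**
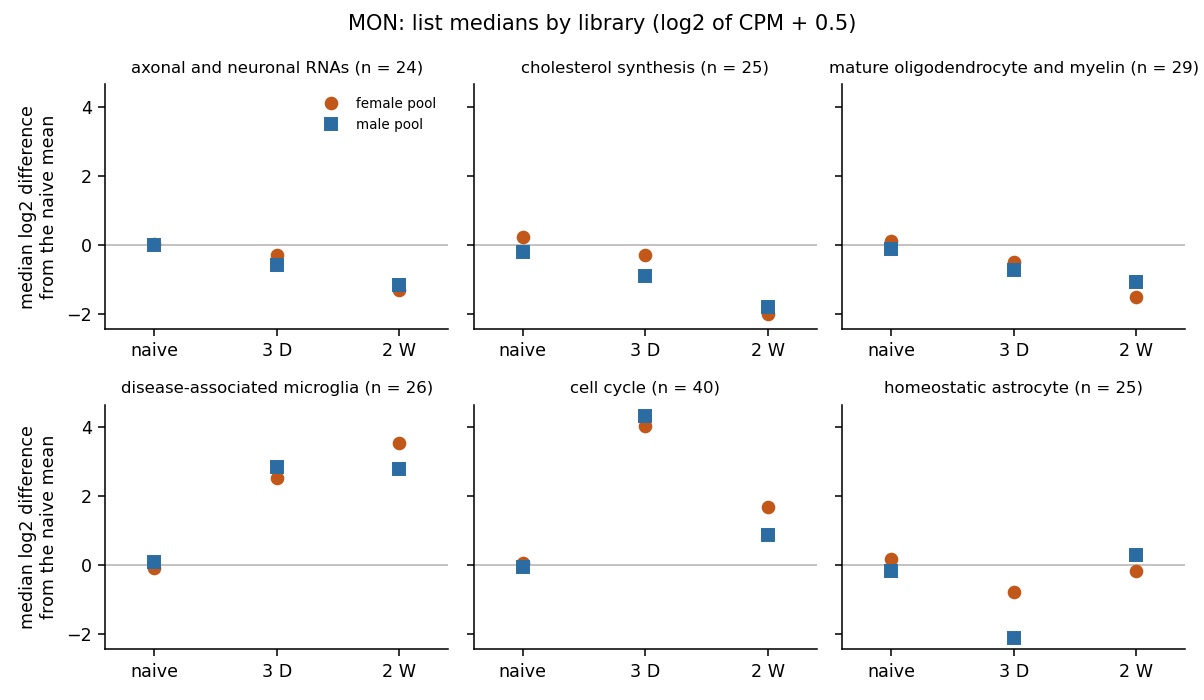
Median log2 difference from the naïve mean over the tested members of 6 gene lists in each MON library (log2 of CPM + 0.5), naïve and at 3 D and 2 W after crush, for the female and the male pool. Cell cycle genes stand at 4.04 and 4.33 at 3 D and at 1.69 and 0.88 at 2 W, axonal, cholesterol and myelin genes are lower at 2 W than at 3 D in both pools, and homeostatic astrocyte genes are lowest at 3 D.

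Whether the MON responded to crush unlike the UON at 2 W was tested as a difference of the changes from naïve. Of 25011 genes tested, 0 were called by edgeR (0%; smallest adjusted p = 0.146), while 2728 had an unadjusted p below 0.05 and DESeq2 called 396 higher and 221 lower in the MON response. Kif5a fell in the UON from 13578 and 17187 CPM to 101 and 43.1 CPM, levels of the same order as in the MON. Esm1 started much higher in the UON, at 272 and 238 CPM, and reached 1266 and 675 CPM, where the MON went from 3.24 and 1.80 CPM to 84.6 and 44.02 CPM on that scale (difference of changes 2.85 ± 0.48 (SE) on the log2 scale, edgeR adjusted p = 0.146). Abca1 was at 177 and 150 CPM and then 375 and 163 CPM in the UON. Hmgcs1 was at 141 and 148 CPM in the naïve UON and at 68.1 and 73.7 CPM at 2 W, so the naïve MON, at 1086 and 709 CPM, started well above both. For Lpl the UON pools at 2 W were far apart, at 124 and 5.83 CPM. The UON and MON pools of the same sex and group came from the same mice, which this fit does not use. With the pool of mice as a block, an alternative chosen after seeing the data, edgeR called 23 genes (0.092%), 18 higher (0.072%) and 5 lower (0.02%) in the MON response, and 2582 had an unadjusted p below 0.05. The smallest edgeR adjusted p of the block fit (3.45e-05) belonged to mt-Nd5, with a fitted difference of 36.77. Its level is not described, as for the other mitochondrial genes. Among the 18 were also Lilrb4a (difference of changes 3.96 ± 0.44 (SE), adjusted p = 0.0169), the elastic fibre protein gene Fbln5 (3.96 ± 0.50, adjusted p = 0.018), Cybb, Osmr and Nid2, and 4 of the 5 lower genes were haemoglobin genes. Lilrb4a went from 6.62 and 6.22 CPM to 38.8 and 18.6 CPM in the UON and from 1.82 and 1.91 CPM to 164 and 89.5 CPM in the MON, higher at 2 W in both segments. Fbln5 went from 118 and 183 CPM down to 40.998 and 57.1 CPM in the UON and from 6.53 and 4.55 CPM up to 21.2 and 37.8 CPM in the MON. Esm1 and Nefl were not called under the block (adjusted p = 0.0554 for both). A p that misses the threshold with 2 pools per group does not show that the segments responded alike. The segments also differ in position relative to the crush, which cannot be told apart from other differences between them.

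Against the MON at 2 W of glaucoma, 0 genes (0%) were higher and 12 (0.0485%) were lower after crush, of 24738 tested, while DESeq2 called 163 and 203. Without adjustment, 1857 genes had a p below 0.05. Of the 12, 1 is a mitochondrial rRNA and the other 11 had also fallen against naïve: Kif5a, Nefl, Unc13c, Rph3a, Nrsn1, Nrn1, Pcp4, Cacng3, Ppfia3, Mapk8ip2 and Mgarp. These comparisons share the 2 W crush pools. Kif5a stood at 4917 and 8425 CPM in glaucoma and at 89.0 and 100.5 CPM after crush (log2 difference −6.14 ± 0.61 (SE), edgeR adjusted p = 0.00977), and Nefl at 33.2 and 46.6 CPM against 0.51 and 0.11 CPM. Without the female crush pool 1 of these calls was left and without the male crush pool 6. Outside these genes the differences did not pass the test. Cst7, which rose after crush, was at 67.0 and 33.6 CPM in glaucoma and at 387 and 261 CPM after crush (adjusted p = 0.143), and Hmgcs1, which fell after crush, at 460 and 603 CPM against 113 and 165 CPM (adjusted p = 0.155).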

How the data were processed

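RNA was extracted with TRIzol, and libraries were sequenced as paired reads. The authors aligned reads with HISAT2 2.2.1 to GRCm38 and assembled them with StringTie 1.3.0 and Gencode M25, and deposited estimated counts per gene in whole numbers and, per library, TPM as deposited from StringTie. A few TPM values of the naïve male MON library were just below 0 and were set to 0. Of the count table, 18 columns were not used.

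Computed here with edgeR 4.0.16 in R 4.3.3: genes were filtered (filterByExpr, minimum count 10, minimum total 15), scaled by TMM and fitted with group and sex over the MON naïve, 3 D and 2 W libraries (quasi-likelihood F test, Benjamini-Hochberg). A call needed an adjusted p below 0.05 and a log2 fold change above 1 in size. SE is the log2 fold change over the root of F. DESeq2 1.42.0, other scalings, filters and left-out libraries were alternatives. The tests were run on simulated data with known changes. For the pool block the simulated spread was a fixed value and not estimated from these data. That check therefore does not show how the block fit behaves at their spread. The response difference and glaucoma fits held 12 libraries each.

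Named genes were the 12 largest changes per direction among calls, the first 4 members of each list with up to 6 called members per direction, and, for the other comparisons, the 5 largest calls per direction and called list members. Other genes, among them those chosen for promoters, were named after their values were seen. Members, lists and motifs were chosen with earlier results of these data known. Of 889 list symbols 4 were not matched in the table. Within a segment, replicates are pools of separate mice. UON and MON were dissected from each animal, so pools of the same sex and group share mice between segments, and a block for the pool was added after seeing the data. The female minus male differences of the 2 segments correlated across genes at r = −0.04 (naïve), 0.08 (3 D) and 0.01 (2 W). Some genes are counted in their lists but not reported here by name.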

Additional observations from a re-analysis of the deposited data

Results flagged for a closer look

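The following results were picked out because a direct test between groups of the same tissue differed (edgeR adjusted p under 0.05). Values are log2 differences, and no explanation was weighed.

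Between 2 W and 3 D after crush in the MON, these genes were lower at 2 W: Nefl (−7.5), Unc13c (−6.7), Rph3a (−6.2), Nrsn1 (−5.12), Kif5a (−4.96), Hmox1 (−3.84), Ccna2 (−3.77), Pbk (−3.46), Ccnb1 (−3.23) and Bcat1 (−3.21). Igf2 (6.86) and Gas1 (5.84) were higher at 2 W.

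Between crush and glaucoma at 2 W in the MON, these genes were lower after crush: Rph3a (−7.38), Unc13c (−7.34), Nefl (−7.26), Kif5a (−6.14), Nrsn1 (−5.87), Cacng3 (−5.18), Pcp4 (−4.72), Ppfia3 (−4.26), Nrn1 (−4.25), Mapk8ip2 (−3.62) and Mgarp (−3.53).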

How the results depend on the processing

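Counts are given as genes higher and lower. For 2 W crush against naïve (425 and 119), DESeq2 gave 1144 and 585, no filter 1104 and 377, no sex term 694 and 257, only the 4 libraries compared 744 and 362, and all 12 MON libraries 672 and 378. Leaving out 1 library gave 7 to 1061 higher and 10 to 488 lower, lowest without the naïve female pool. For 2 W against 3 D (3 and 12), DESeq2 gave 609 and 447, no filter 558 and 420, no sex term 38 and 83, and leaving out 1 library 121 to 933 and 132 to 537. For the MON against the UON response (0 and 0), DESeq2 gave 396 and 221, no filter 467 and 148, and leaving out 1 library 0 to 1140 and 0 to 147, highest without the female UON pool at 2 W. The replicate block for the pool of mice gave 18 and 5. For crush against glaucoma (0 and 12), DESeq2 gave 163 and 203, no filter 146 and 158, and leaving out 1 library 0 to 6 and 1 to 48. The cause of these differences was not tested. DESeq2 size factors in edgeR, and leaving out mitochondrial genes for 2 W against naïve, kept every count within 1.5 times of the main one. Over the named genes and all settings of 2 W against naïve, called genes kept their call in 1306 cases and lost it in 311, genes not called gained a call in 227 cases and did not in 1324, and no called gene changed direction. With 2 pools per group and libraries down to 16326906 counts, genes of low level are limited by depth. No pairing joins the pools of the other comparisons, since their groups are different mice, and sex is a term of those models.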
